A study of Mus musculus with 12 samples.

Results

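Matrix metalloproteinases and their tissue inhibitors (TIMPs) were followed in quadriceps of dystrophic mice through 10 genes: Mmp2, Mmp3, Mmp9, Mmp12, Mmp14, Mmp19, Timp1, Timp2, Timp3 and Timp4. A gene was included when an array cluster paired with its symbol and no other, and each of the 10 had 1 such cluster among the 30412 single-symbol clusters of the 65587 on the array. The 12 arrays came from male mice aged 6 weeks on the C57BL/10 background, 3 per group and each labelled as a biological replicate. Spironolactone (100 mg/kg per day) or eplerenone (200 mg/kg per day), both mineralocorticoid receptor antagonists, was given with lisinopril (20 mg/kg per day), an inhibitor of angiotensin-converting enzyme, in medicated pellets. Prednisolone, a synthetic glucocorticoid, was given in drinking water at 1.5 mg/kg per day, and all treatments ran from 4 to 6 weeks of age. Untreated mice ate normal chow, so the combinations differed from untreated in the pellet as well as in the drugs. All groups carried the same genotype, utrn+/-;mdx, which combines the dystrophin mutation of the mdx mouse with loss of 1 of the 2 utrophin alleles, and no healthy muscle was analysed here.

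Matrix metalloproteinases are zinc-dependent enzymes that cut collagens, laminin, elastin and other matrix proteins, and most are secreted as inactive precursors. TIMPs bind the active site and block it. In dystrophic muscle, where fibres die and regenerate, these enzymes come from infiltrating leukocytes, fibroblasts and fibres, and their inhibitors take part in how much matrix is kept.

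Array medians over the tested clusters lay between 5.70 and 5.81 log2 units. Of the 12 muscle fibre markers, which included Ckm and Acta1, every one had a mean signal above at least 88.9% of tested clusters. Replicates of 1 group correlated at 0.992 to 0.996 over all tested clusters, and arrays of different groups at 0.986 to 0.996. Untreated replicates 2 and 3 stood apart from untreated replicate 1 in several of the 10 genes, and results that rest on them are given with and without them.

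Mmp3 fell with prednisolone, and it was the single member of the 10 that passed the threshold in any of the 6 pairwise comparisons (limma, Benjamini-Hochberg adjusted p under 0.05 over all 30412 clusters). In the whole array 6.39% of clusters passed in prednisolone against untreated and 3.17% passed as lower, so 1 of 10 is near the background. No member passed with spironolactone plus lisinopril, where 0.0822% of clusters did, or with eplerenone plus lisinopril, where 0.0296% did. At an unadjusted p under 0.05 the same limma fit had 4, 2 and 3 members lower with prednisolone, spironolactone plus lisinopril and eplerenone plus lisinopril, with 10.8%, 9.84% and 7.33% of all clusters lower on that rule. A 2-fold difference, the size limit of the study's own design and no test, was reached by Mmp3, Mmp19 and Timp1 in all 3 comparisons against untreated, each time as lower. The background on that rule was 0.572% of clusters lower with spironolactone plus lisinopril, 0.483% with eplerenone plus lisinopril and 1.17% with prednisolone. These 3 comparisons share the untreated arrays. In the F-test over the 4 groups 0 members passed after adjustment (1.93% of clusters did), and the smallest adjusted p was 0.0967, for Mmp3.

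Across the 10 genes the median log2 difference from untreated was -0.28 with spironolactone plus lisinopril, -0.31 with eplerenone plus lisinopril and -0.24 with prednisolone. The same medians over all tested clusters were -0.045, -0.027 and -0.013. Means lay below untreated for 9 of 10 members with spironolactone plus lisinopril (59.2% of all clusters), for 5 with eplerenone plus lisinopril (56%) and for 8 with prednisolone (52.7%).

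**Figure D1:**
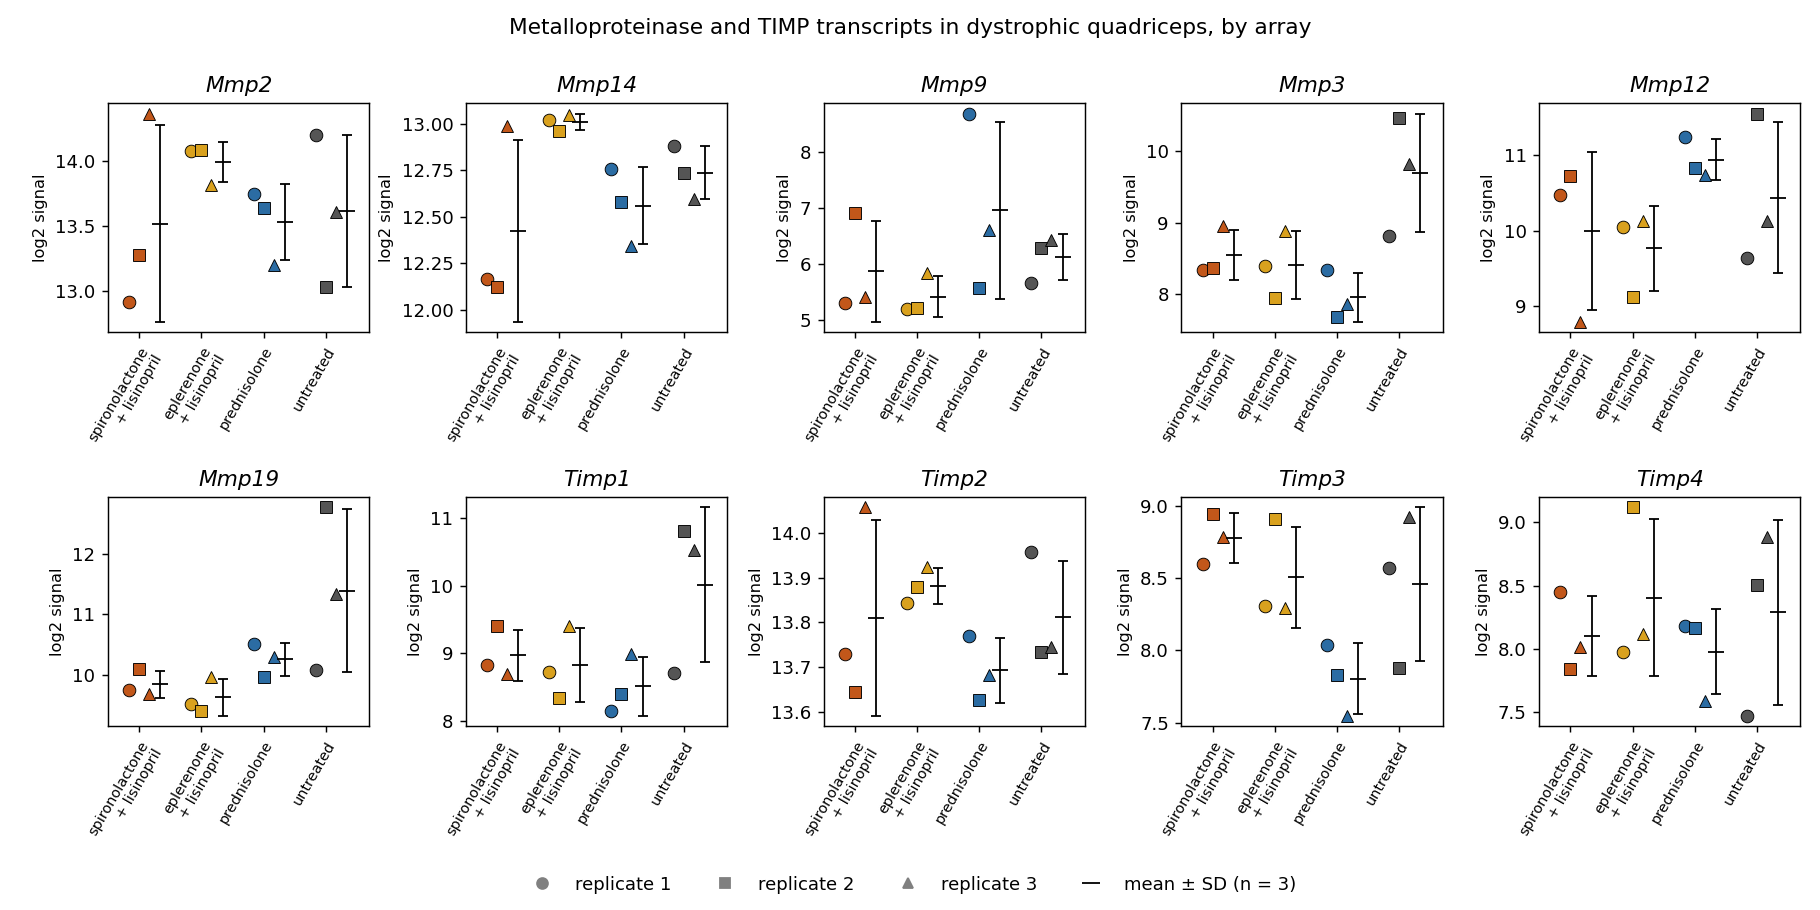
Log2 signal (y axis) of each of the 10 genes in every array, by group (x axis). Symbols are single arrays (n = 3 per group) and the black bar with whiskers is the mean ± SD. Scales differ between panels and levels of different genes are not comparable. Mmp3, Mmp19 and Timp1 are highest in untreated replicates 2 and 3, with untreated replicate 1 inside or near the treated range.

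Mmp3 encodes stromelysin-1, which cuts laminin, fibronectin and proteoglycans and can activate other metalloproteinases. Its log2 signal was 8.33, 7.67 and 7.85 with prednisolone, 8.33, 8.35 and 8.95 with spironolactone plus lisinopril and 8.39, 7.94 and 8.89 with eplerenone plus lisinopril, against 8.81, 10.47 and 9.82 without treatment. Every prednisolone array lay below every untreated array, as in 13.3% of all clusters, while the combinations each had 1 array above the lowest untreated one. With prednisolone Mmp3 fell by 1.75 ± 0.38 (SE; adjusted p = 0.0232), to 0.297 of the untreated level on the deposited scale. Its differences were -1.16 ± 0.38 with spironolactone plus lisinopril (adjusted p = 0.207) and -1.30 ± 0.38 with eplerenone plus lisinopril (adjusted p = 0.238), neither past the threshold. Fitted from the prednisolone and untreated arrays alone, the prednisolone difference was no longer past (adjusted p = 0.0789).

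The promoter of Mmp3 and those of Mmp12 and Timp1 are shown because these genes were each highest in the same array, untreated replicate 2, and because AP-1, the Fos-Jun factor through which stromelysin genes are induced by cytokines, has a known recognition sequence. The 250 bases before the annotated start are given on the gene's strand, from RefSeq (GRCm38.p6), and 7 of the 10 genes had an entry. Capitals mark AP-1 matches (TGANTCA), ETS matches (AGGAAG, either strand) and TATAAA. The windows are chr9:7445572-7445821 for Mmp3, chr9:7347124-7347373 for the second listed start of Mmp12 and chrX:20869916-20870165 for Timp1, all on the plus strand.
Mmp3: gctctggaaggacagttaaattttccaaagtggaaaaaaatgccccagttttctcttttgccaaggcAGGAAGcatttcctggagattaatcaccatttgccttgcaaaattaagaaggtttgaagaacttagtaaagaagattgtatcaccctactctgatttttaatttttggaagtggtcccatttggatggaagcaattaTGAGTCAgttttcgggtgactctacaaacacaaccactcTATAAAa
Mmp12: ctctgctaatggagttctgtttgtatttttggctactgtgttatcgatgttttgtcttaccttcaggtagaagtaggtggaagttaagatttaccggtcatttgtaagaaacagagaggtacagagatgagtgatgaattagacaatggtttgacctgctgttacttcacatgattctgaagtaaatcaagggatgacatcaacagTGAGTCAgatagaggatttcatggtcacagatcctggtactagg
Timp1: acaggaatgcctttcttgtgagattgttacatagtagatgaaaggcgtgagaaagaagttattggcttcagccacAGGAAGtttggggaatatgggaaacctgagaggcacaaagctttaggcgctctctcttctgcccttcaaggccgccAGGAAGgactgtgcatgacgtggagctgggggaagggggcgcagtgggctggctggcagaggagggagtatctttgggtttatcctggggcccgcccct
An AP-1 match began 46 bases before the start of Mmp3 and 44 bases before this start of Mmp12, and 2 of the 7 genes had one, against 6.75% of 32851 windows of the same length. ETS matches were in 6 of the 7 genes and in 29.5% of windows. Timp1 had 2 ETS matches and no AP-1 match in this window, and the window of the first listed start of Mmp12 had no AP-1 match. The ETS match of Mmp12 was in that first window and not in the printed one. As Mmp12 had 2 windows, the 7 genes had 8, so counts of genes and shares of windows are not fully alike. TATAAA was found in Mmp3 alone of the 7, and in 12.4% of windows. The STAT letters (TTCNNNGAA), an NF-kB consensus and the full glucocorticoid receptor palindrome were in 0 of the 7, against 7.02%, 1.41% and 0.00913% of windows. Both strands were searched, the motifs do not overlap here, and a match is a description of letters and not evidence of binding.

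Mmp12, the macrophage metalloelastase, did not share the low values of Mmp3 with prednisolone although both sit in the same gene cluster of chromosome 9. Its log2 signal was 11.25, 10.84 and 10.74 with prednisolone, 10.47, 10.73 and 8.79 with spironolactone plus lisinopril and 10.05, 9.12 and 10.13 with eplerenone plus lisinopril, against 9.64, 11.56 and 10.13 without treatment. The untreated arrays were widely spread and included the highest of the 12, and the difference from untreated was 0.50 ± 0.55 with prednisolone (adjusted p = 0.672), -0.44 ± 0.55 with spironolactone plus lisinopril (0.706) and -0.68 ± 0.55 with eplerenone plus lisinopril (0.617). Mmp19, a metalloproteinase of basement membrane components, had 9.75, 10.10 and 9.69 with spironolactone plus lisinopril, 9.53, 9.40 and 9.98 with eplerenone plus lisinopril and 10.51, 9.98 and 10.30 with prednisolone, against 10.09, 12.76 and 11.33 without treatment. The 3 eplerenone arrays lay below all untreated arrays, as in 9.23% of clusters, while the other treatments overlapped with untreated replicate 1. Its log2 differences were -1.55 ± 0.50, -1.76 ± 0.50 and -1.13 ± 0.50 in the same order of treatments, with adjusted p of 0.201, 0.224 and 0.215.

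The gelatinases are Mmp2, which fibroblasts and other stromal cells make steadily, and Mmp9, which neutrophils and macrophages release. Mmp2 read 12.91, 13.28 and 14.36 with spironolactone plus lisinopril, 14.07, 14.09 and 13.82 with eplerenone plus lisinopril and 13.75, 13.64 and 13.20 with prednisolone, against 14.20, 13.03 and 13.61 without treatment. Untreated and spironolactone arrays were widely spread, and the differences of -0.095, 0.38 and -0.084 (SE 0.36 each) were near or inside that spread (adjusted p of 0.917, 0.672 and 0.933). Mmp9 was at 5.30, 6.91 and 5.41 with spironolactone plus lisinopril, 5.20, 5.22 and 5.84 with eplerenone plus lisinopril and 8.69, 5.58 and 6.61 with prednisolone, against 5.67, 6.28 and 6.44 without treatment. Its signal was dim in several arrays, as the values up to 5.67 lay under the array medians of 5.70 to 5.81. Prednisolone replicate 1 was the highest of the 12 arrays and prednisolone replicate 2 lay below all untreated arrays. The prednisolone difference of 0.83 ± 0.67 (adjusted p = 0.531) was -0.035 without replicate 1. With the combinations the Mmp9 differences were -0.26 ± 0.67 and -0.71 ± 0.67 (adjusted p of 0.871 and 0.672). Lcn2, whose protein is known in humans to bind MMP9, was also highest in prednisolone replicate 1; it is named here after its values were seen. Its log2 signal was 9.44, 8.12 and 7.97 with prednisolone, against 5.58, 6.96 and 7.65 without treatment (difference 1.78 ± 0.48, adjusted p = 0.0537).

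Mmp14 encodes the membrane-type enzyme that, with TIMP2, activates the MMP2 precursor at the cell surface. Its values were 12.16, 12.12 and 12.99 with spironolactone plus lisinopril, 13.02, 12.96 and 13.05 with eplerenone plus lisinopril and 12.76, 12.58 and 12.34 with prednisolone, against 12.88, 12.73 and 12.59 without treatment. The eplerenone arrays were the tightest group (SD 0.045) and lay above all untreated arrays, as in 7.7% of clusters, with a difference of 0.27 ± 0.20 (adjusted p = 0.581). Spironolactone replicates 1 and 2 lay below every other array and replicate 3 among the eplerenone arrays, giving -0.31 ± 0.20 (adjusted p = 0.451), and the prednisolone difference was -0.18 ± 0.20 (0.684). Mmp2, Mmp14 and Timp2, the 3 genes of this activation complex, were each highest in spironolactone replicate 3 within that group. Mmp3, which is outside the complex, was highest there too. Within the group 4 members were highest in replicate 3, 5 in replicate 2 and 1 in replicate 1. Whether the complex differed in this from other genes was not tested. Markers of several other cell types were high in spironolactone replicate 3. The median deviation from the 12-array mean in spironolactone replicate 3, against replicates 1 and 2, was 2.34, against 0.47 and -0.57, for 7 adipocyte markers. It was 0.50, against -0.058 and -0.017, for 11 fibroblast markers and 0.41, against -0.12 and 0.082, for 9 endothelial markers. Replicate 3 was the highest of the 12 arrays for adipocyte and fibroblast markers, and the part of these cells in the spread of the 3 genes was not tested.

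Timp1 is the inducible inhibitor, raised by cytokines in injured tissue. Its log2 signal was 8.83, 9.40 and 8.69 with spironolactone plus lisinopril, 8.73, 8.34 and 9.41 with eplerenone plus lisinopril and 8.16, 8.39 and 8.99 with prednisolone, against 8.71, 10.80 and 10.53 without treatment. Untreated replicates 2 and 3 exceeded all 9 treated arrays, and untreated replicate 1 lay within the range of each treatment. The differences were -1.04 ± 0.49, -1.19 ± 0.49 and -1.50 ± 0.49 in that order, and none passed (adjusted p of 0.321, 0.332 and 0.097).

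Timp2, the partner of MMP14, varied least of the 10, with an SD of 0.13 over the 12 arrays. It read 13.73, 13.64 and 14.06 with spironolactone plus lisinopril, 13.84, 13.88 and 13.92 with eplerenone plus lisinopril and 13.77, 13.63 and 13.68 with prednisolone, against 13.96, 13.73 and 13.74 without treatment. Its differences from untreated lay between -0.12 and 0.070, and the widest 95% interval bound was -0.36 (prednisolone). Timp3, the inhibitor that stays bound to the matrix and also blocks ADAM and ADAMTS enzymes, was at 8.60, 8.94 and 8.79 with spironolactone plus lisinopril, 8.31, 8.91 and 8.30 with eplerenone plus lisinopril and 8.03, 7.83 and 7.55 with prednisolone, against 8.57, 7.87 and 8.92 without treatment. The prednisolone arrays were the 2 lowest and the fourth lowest of the 12, with untreated replicate 2 among them. The prednisolone difference of -0.65 ± 0.25 did not pass (adjusted p = 0.162). Without untreated replicate 2 it was -0.94 and passed (adjusted p = 0.0466), where 3.08% of clusters passed and 1.83% passed as lower. Differences with the combinations were 0.32 ± 0.25 and 0.048 ± 0.25 (adjusted p of 0.537 and 0.955). Timp4, the inhibitor known from heart, skeletal muscle and fat, had 8.45, 7.84 and 8.01 with spironolactone plus lisinopril, 7.98, 9.12 and 8.12 with eplerenone plus lisinopril and 8.18, 8.17 and 7.59 with prednisolone, against 7.47, 8.51 and 8.88 without treatment. The untreated arrays alone covered 1.41 log2 units, and no difference was beyond -0.31 ± 0.38 (prednisolone, adjusted p = 0.708). Timp1, Timp3 and Timp4 lie within introns of the synapsin genes Syn1, Syn3 and Syn2 on the opposite strand. Those 3 host genes had 0 members past the threshold in all 6 comparisons, and their differences from untreated lay between -0.22 and 0.14.

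**Figure D2:**
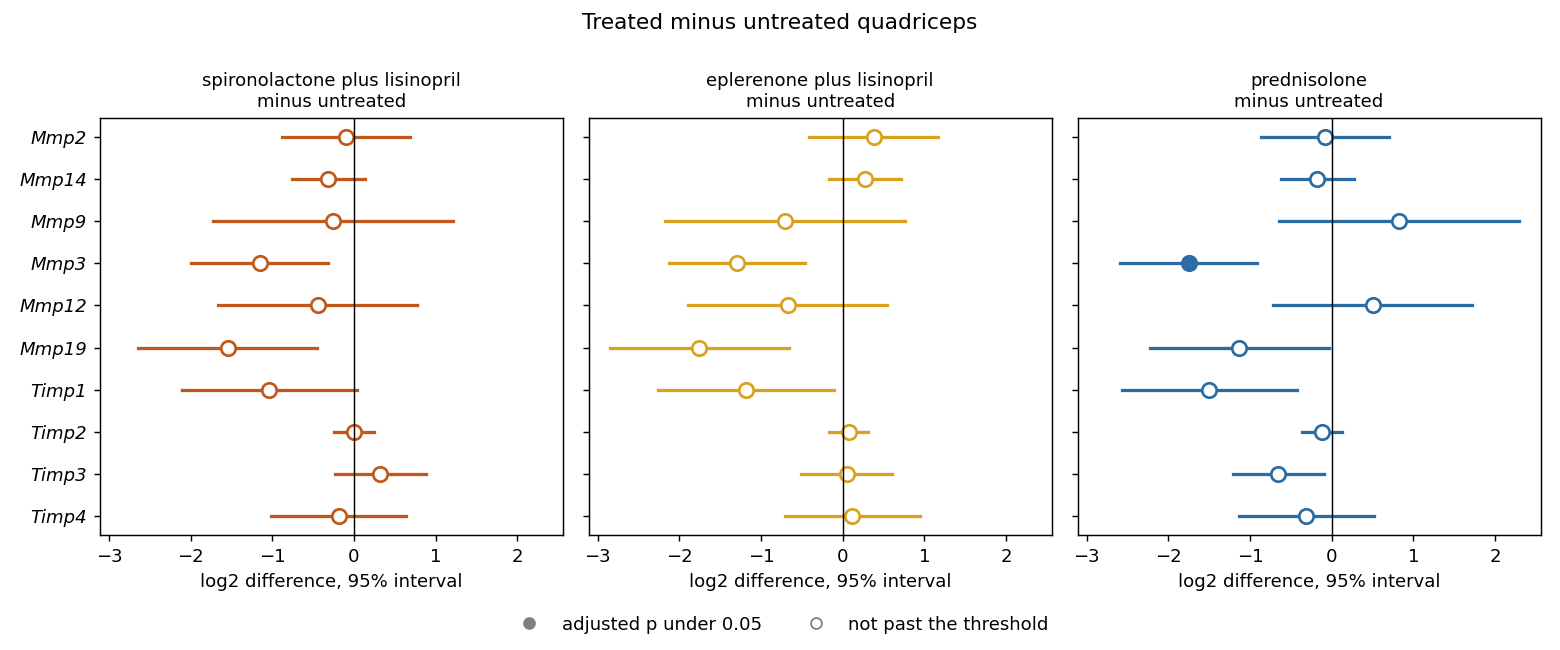
Log2 difference from untreated (x axis) with its 95% interval for each gene (y axis), 1 panel per treatment, from the limma fit to 12 arrays. Filled points passed an adjusted p of 0.05; Mmp3 with prednisolone (-1.75) is the single filled point.

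The differences of Mmp3, Mmp19 and Timp1 depended on which untreated arrays were used. Without untreated replicate 1, all 3 passed as lower under each treatment, but the share of all clusters called also grew. It was 1.76% with spironolactone plus lisinopril (1.04% as lower), 1.42% with eplerenone plus lisinopril (0.865%) and 8.69% with prednisolone (4.39%). On that basis Mmp3 was at -1.60, -1.74 and -2.19 in this order of treatments (adjusted p of 0.0403, 0.0335 and 0.00416). Mmp19 was at -2.20, -2.41 and -1.78 (adjusted p of 0.0195, 0.0151 and 0.0155), and Timp1 at -1.69, -1.84 and -2.15 (adjusted p of 0.04, 0.0335 and 0.00536). Without untreated replicate 2 or 3, Mmp3 with prednisolone was at -1.37 or -1.69 and did not pass (adjusted p of 0.0719 and 0.077). It also did not pass without prednisolone replicate 2 or 3 (0.0982 and 0.0575). Against untreated replicate 1 alone, Mmp3 was at -0.27, -0.41 and -0.86, Mmp19 at -0.24, -0.45 and 0.17, and Timp1 at 0.27, 0.12 and -0.19, none past the threshold.

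**Figure D3:**
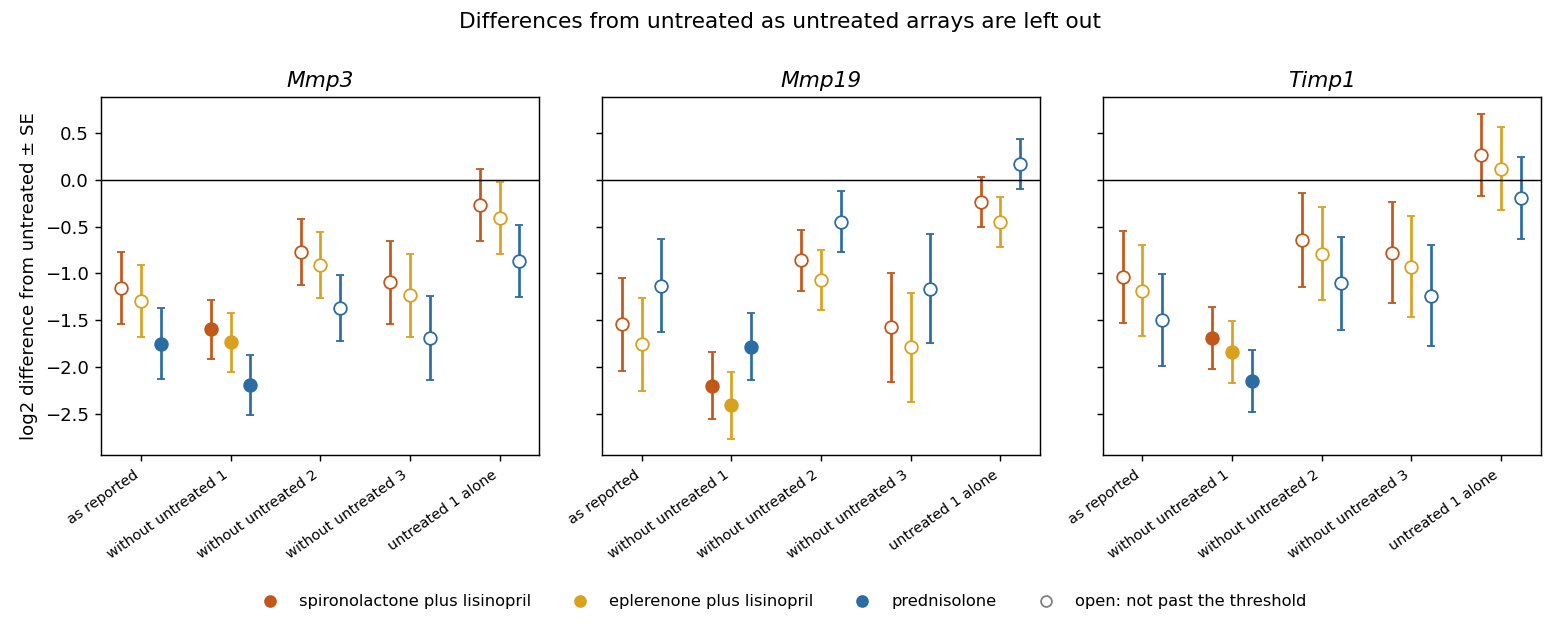
Log2 difference from untreated ± SE (y axis) for Mmp3, Mmp19 and Timp1 with all arrays, without each untreated array, and against untreated replicate 1 alone (x axis); colours are treatments and filled points passed an adjusted p of 0.05. All 3 genes are lowest relative to untreated when replicate 1 is left out and nearest to 0 when it is the only control.

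Leukocyte markers were high in the same untreated arrays. The mean log2 signal over 13 neutrophil markers was 5.60 to 6.01 with spironolactone plus lisinopril, 5.46 to 5.69 with eplerenone plus lisinopril and 5.94 to 6.03 with prednisolone, against 5.97, 7.59 and 7.47 in untreated replicates 1, 2 and 3. Of these markers 2 of 13 were lower with prednisolone, where 3.17% of all clusters were, and 0 of 13 passed with either combination. The 2 were Hdc (-2.87 ± 0.46, adjusted p = 0.00685) and Retnlg (-2.54 ± 0.66, adjusted p = 0.0462). Hdc was also low with spironolactone plus lisinopril (4.94, 5.18 and 5.82) and eplerenone plus lisinopril (5.44, 5.37 and 5.17), against 6.56, 8.92 and 8.07 without treatment. The median log2 difference of the 13 markers was -0.31 with prednisolone but -1.28 and -1.32 with these combinations. For each combination the median marker was Lcn2, which was higher with prednisolone than without treatment. With prednisolone the median marker was Ly6g (5.18, 5.40 and 5.12, against 5.61, 5.32 and 5.70 without treatment). The contrast thus rests on single genes and does not show how far the list fell as a whole. Lcn2, Camp, Ltf and Elane were among the markers with higher means with prednisolone than without treatment, none past the threshold. Mpo, Elane, Ngp, Ltf, Ly6g and Camp were dim, with means over all arrays under every array median. These genes are named after their values were seen. For 16 macrophage markers the mean was 11.4 to 11.8 with spironolactone plus lisinopril, 11.4 to 11.9 with eplerenone plus lisinopril and 11.2 to 11.6 with prednisolone, against 11.8, 12.6 and 12.1 without treatment. Here 6 of 16 were lower with prednisolone, led by Cd14 (-1.55), Ly6c2 (-0.76), Fcgr1 (-2.23) and Tyrobp (-1.26), with adjusted p from 0.00366 to 0.0144. With each combination 1 of 16, Cd14, was lower, where 0.0625% of all clusters were with spironolactone plus lisinopril and 0.023% with eplerenone plus lisinopril. In bulk muscle fewer leukocytes and less RNA per leukocyte cannot be told apart, and the part of either in the values of Mmp3, Mmp19 and Timp1 was not tested. Mmp9 and Mmp12 are known as leukocyte products too. Mmp9 was highest in prednisolone replicate 1, where the neutrophil mean was 5.94. Mmp12 was highest in untreated replicate 2, where the macrophage mean was highest, and lowest in spironolactone replicate 3 and eplerenone replicate 2, where that mean was 11.4 in both. It was also above untreated replicate 3 in all 3 prednisolone arrays, where the macrophage mean was lower, and the part of leukocytes in these values was not tested either.

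**Figure D4:**
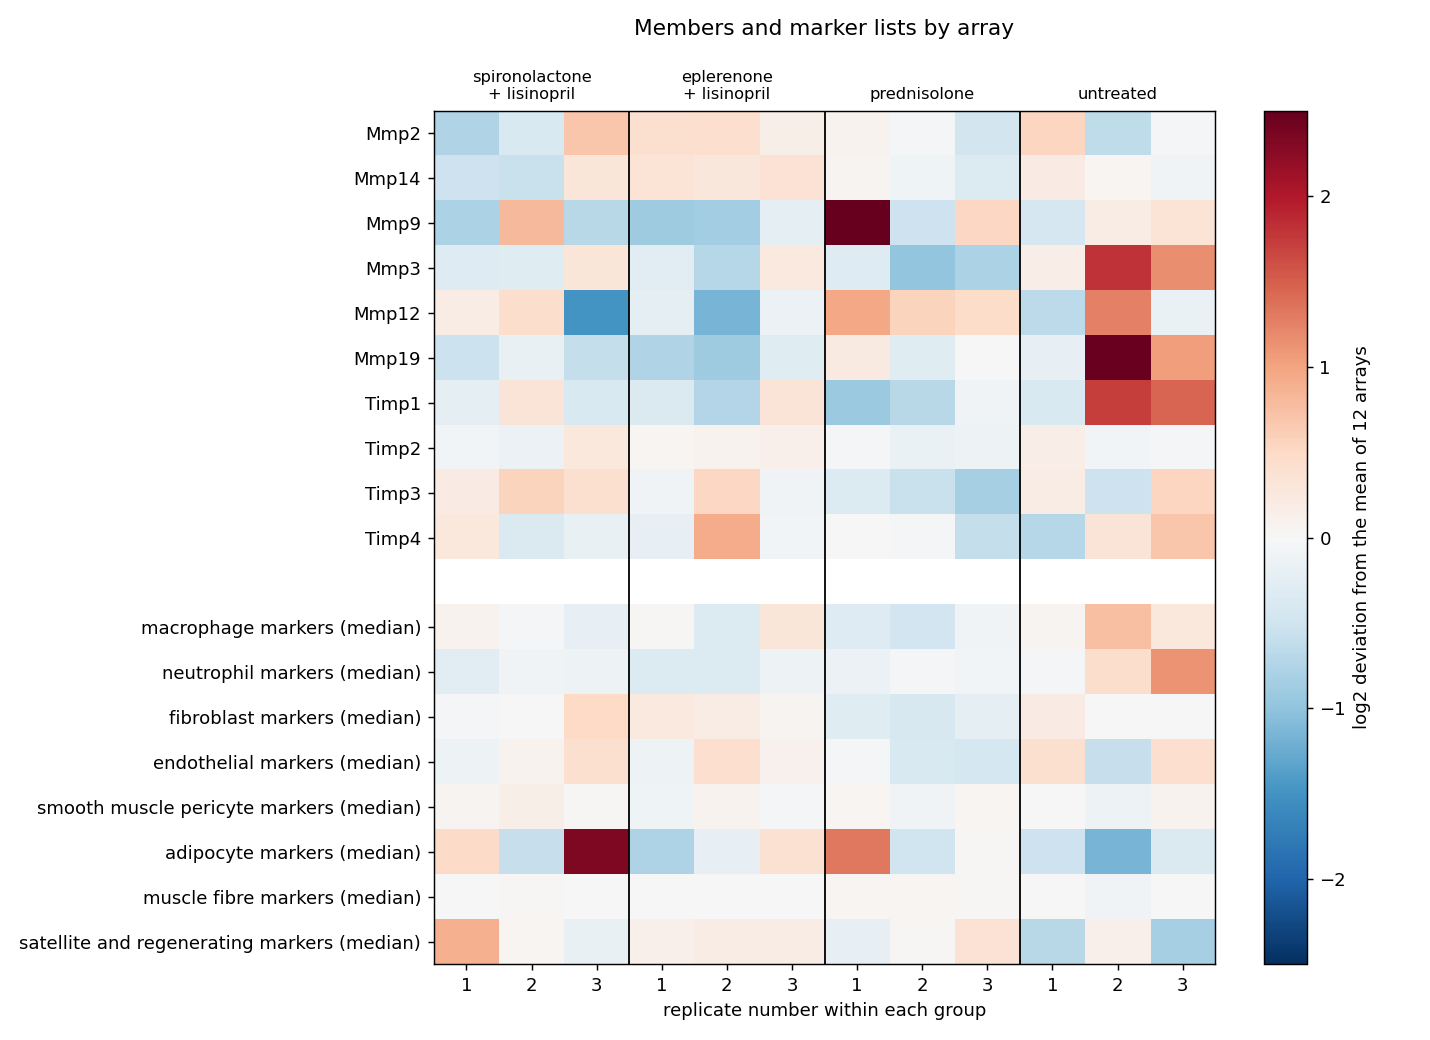
Deviation of each array from the gene's own 12-array mean in log2 units (colour, red higher, blue lower) for the 10 genes, and the median deviation of each marker list below them; columns are arrays by group and replicate. Untreated replicate 2 is the highest array for 4 of the 10 genes (Mmp3, Mmp12, Mmp19 and Timp1), and the neutrophil row is highest in untreated replicates 2 and 3. The macrophage row is highest in untreated replicate 2, while untreated replicate 3 (0.26) lies below eplerenone replicate 3 (0.31).

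The direct comparison of the antagonists asked whether spironolactone and eplerenone, steroidal antagonists of the same receptor, differed when each was combined with lisinopril. Eplerenone carries an epoxide, and a carbomethoxy group where spironolactone has an acetylthio group; their doses differed (100 and 200 mg/kg per day). None of the 10 members passed, nor did any cluster of the array (0%); at an unadjusted p under 0.05 limma had 1 member, Mmp14, and 4.49% of clusters. Mmp14 averaged 12.42 ± 0.49 with spironolactone plus lisinopril and 13.01 ± 0.045 with eplerenone plus lisinopril (SD, n = 3 each), a difference of -0.58 (95% interval -1.03 to -0.14, adjusted p = 0.998), and the groups overlapped through spironolactone replicate 3. For Mmp3, Mmp19 and Timp1 the differences were 0.14 (-0.70 to 0.98), 0.21 (-0.89 to 1.31) and 0.15 (-0.92 to 1.22). Each of these intervals includes 0, which does not show that the compounds acted alike. The narrowest interval was that of Timp2, -0.32 to 0.17.

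Against prednisolone no member passed for either combination, while 0.822% of clusters passed for spironolactone plus lisinopril and 0.608% for eplerenone plus lisinopril. At an unadjusted p under 0.05 limma had 1 member, Timp3, for spironolactone plus lisinopril (16.3% of clusters) and 3 for eplerenone plus lisinopril (12.5%): Mmp9, Mmp14 and Timp3. Timp3 had the smallest p, with 8.77 ± 0.17 under spironolactone plus lisinopril and 7.80 ± 0.24 under prednisolone (SD, n = 3 each). That difference was 0.97 ± 0.25 (SE; adjusted p = 0.0958), and under eplerenone plus lisinopril it was 0.70 ± 0.25 (adjusted p = 0.278). The Timp3 arrays of prednisolone lay below those of both combinations. With eplerenone plus lisinopril against prednisolone, 5 of 10 members did not overlap, where 19.9% of clusters did not: Mmp2, Mmp14, Timp2 and Timp3 were higher and Mmp12 lower. The differences of these 5 were 0.46, 0.45, 0.19, 0.70 and -1.18 log2 units, with adjusted p from 0.278 to 0.678. Fibroblast markers averaged 13.0 to 13.1 log2 units with eplerenone plus lisinopril and 12.6 to 12.7 with prednisolone, and their part in the values of Mmp2, Mmp14, Timp2 and Timp3 was not tested. With spironolactone plus lisinopril 2 of 10 did not overlap (24% of clusters), Timp3 higher and Mmp12 lower, with Mmp12 at -0.94 ± 0.55 (adjusted p = 0.433). Mmp9 was at -1.09 ± 0.67 and -1.54 ± 0.67 for the combinations (adjusted p of 0.455 and 0.372), and -0.22 and -0.67 without prednisolone replicate 1.

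**Figure D5:**
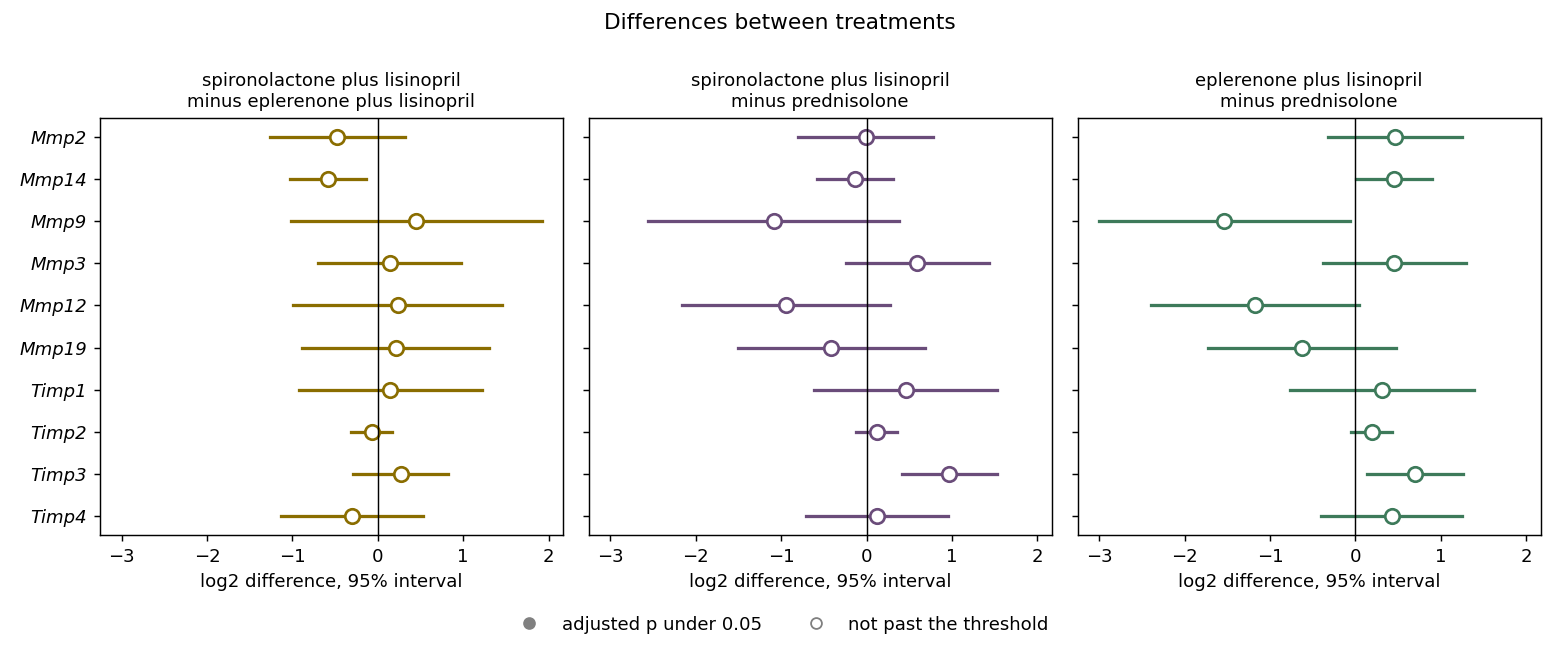
Log2 difference between treatments (x axis) with its 95% interval for each gene (y axis), the first-named treatment minus the second. All points are open, since no member passed an adjusted p of 0.05; Timp3 lies at 0.97 and 0.70 in the comparisons with prednisolone.

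The other genes of the pathway were described through lists chosen with earlier results of these data known. Their counts stand beside 3.17% of all clusters lower and 3.22% higher with prednisolone, 0.0822% called with spironolactone plus lisinopril and 0.0296% with eplerenone plus lisinopril. Of 16 other metalloproteinase genes measured, 1 was lower and 1 higher with prednisolone and 0 passed with either combination (medians -0.11, -0.12 and -0.094 for prednisolone, spironolactone plus lisinopril and eplerenone plus lisinopril), and 1 of 16 each way is near the prednisolone background. Mmp25, a membrane-anchored enzyme known from leukocytes, fell by 0.41 ± 0.072 with prednisolone (adjusted p = 0.0101). Its log2 signal was 4.55, 4.70 and 4.69 with spironolactone plus lisinopril, 4.63, 4.52 and 4.60 with eplerenone plus lisinopril and 4.52, 4.61 and 4.61 with prednisolone, against 5.00, 4.99 and 4.99 without treatment. All treated arrays lay below all untreated ones, by a small step, and the differences with the combinations, -0.35 and -0.41 (SE 0.072 each), did not pass (adjusted p of 0.13 and 0.104). Per treatment, no overlap in that direction was seen in 13.1%, 9.23% and 13.3% of all clusters (spironolactone, eplerenone and prednisolone). The Mmp25 signal was dim, as every value lay under the array medians of 5.70 to 5.81. Mmp11, stromelysin-3, rose by 0.73 ± 0.19 (adjusted p = 0.0425), with 7.43, 7.25 and 6.62 with prednisolone, against 6.51, 6.34 and 6.27.

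Of 24 ADAM and ADAMTS proteases 3 were lower with prednisolone (3.17% of all clusters were) and 0 passed with either combination (medians -0.15, -0.090 and 0.010 for prednisolone and the combinations with spironolactone and eplerenone). Adamts9 and Adamts1, which cut large proteoglycans, fell by 2.35 ± 0.42 and 1.53 ± 0.29 (adjusted p of 0.0108 and 0.0135), and Adam10, a sheddase of membrane proteins, by 0.65 ± 0.13 (adjusted p = 0.0183). Adamts9 read 7.74, 7.60 and 7.66 with prednisolone, against 9.88, 9.0 and 11.16 without treatment, and it was high in untreated replicate 1 too, unlike Timp1. With the combinations it was also low, at 7.82, 8.30 and 8.69 (spironolactone) and 8.22, 8.58 and 8.44 (eplerenone). Adamts1 read 8.76, 8.96 and 9.25 and 9.11, 9.47 and 8.80 there, against 10.21, 9.79 and 11.02 without treatment. For both genes every combination array lay below every untreated array, as in 13.1% of clusters with spironolactone plus lisinopril and 9.23% with eplerenone plus lisinopril. Among 20 genes of proteolytic activation and inhibition, 2 were lower and 2 higher with prednisolone, 2 were lower with spironolactone plus lisinopril and 0 passed with eplerenone plus lisinopril. Plaur, the urokinase receptor that places plasmin activation at the cell surface, read 7.39, 7.41 and 7.14 with spironolactone plus lisinopril, 7.27, 7.29 and 7.53 with eplerenone plus lisinopril and 7.44, 7.34 and 7.36 with prednisolone, against 8.36, 9.31 and 8.63 without treatment. All treated arrays were lower than all untreated ones, and the adjusted p was 0.0282, 0.0501 and 0.00413. Per treatment, such a lack of overlap was seen in 13.1%, 9.23% and 13.3% of all clusters. Thbs1, a matricellular protein that regulates metalloproteinases, was the second gene lower under both spironolactone plus lisinopril (-2.90) and prednisolone (-3.42), and was at -2.77 with eplerenone plus lisinopril (adjusted p = 0.0706). The proteoglycan Spock2 and Bsg (an inducer of metalloproteinases also called CD147) rose by 0.82 ± 0.13 and 0.44 ± 0.095 with prednisolone (adjusted p of 0.0062 and 0.0232). Lcn2 and Spock2 were lower with each combination than with prednisolone, Lcn2 at -3.06 and -3.10 (adjusted p of 0.0244 and 0.0221).

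The matrix proteins that these enzymes cut had 6 of 20 lower and 1 higher with prednisolone, and 0 of 20 past with either combination (medians -0.22, 0.019 and 0.14 in the order prednisolone, spironolactone and eplerenone). Fibroblast markers, of which Col1a1, Col1a2, Col3a1 and Dcn stand in this list too, had a mean log2 signal of 12.6 to 12.7 with prednisolone, against 12.9 to 13.2 without treatment, and 4 of 11 were lower (Col1a1, Col1a2, Col3a1 and Thy1); their part in these values was not tested. The fibrillar collagens Col1a1 and Col3a1 fell by 0.66 ± 0.072 and 0.66 ± 0.10 (adjusted p of 0.00208 and 0.00611), fibronectin (Fn1) fell by 0.81 ± 0.14 and the basement membrane proteoglycan Hspg2 by 0.59 ± 0.11 (adjusted p of 0.00839 and 0.0129). Dystroglycan, Dag1, the laminin receptor of the muscle fibre, rose by 0.43 ± 0.098 (adjusted p = 0.0271); it is named after its values were seen, as the 1 gene of this list that was higher. Against prednisolone, 4 of 20 were higher and 1 lower with spironolactone plus lisinopril, and 5 of 20 higher with eplerenone plus lisinopril, beside 0.822% and 0.608% of all clusters called. Col1a1 was higher by 0.62 and 0.84 with these combinations, Col3a1 by 0.55 and 0.75, Hspg2 by 0.79 and 0.91, and Col1a2 by 0.59 with eplerenone plus lisinopril, with adjusted p from 0.00118 to 0.0417. Elastin, Eln, was lower with spironolactone plus lisinopril than with prednisolone, by -0.79 ± 0.15 (adjusted p = 0.0438). Of 19 cytokines and transcription factors that induce metalloproteinase genes, 8 were lower with prednisolone and 1, Il6, with spironolactone plus lisinopril (medians -0.69, -0.46 and -0.41 for prednisolone and the combinations with spironolactone and eplerenone). Fosl2, an AP-1 subunit, fell by 2.28 ± 0.46 with prednisolone (adjusted p = 0.0175), with 7.95, 7.68 and 7.60 with prednisolone, against 10.83, 9.19 and 10.04. Fosl2 was higher in untreated replicate 1 than in untreated replicates 2 and 3, unlike Mmp3. The cytokine Il1b ran the other way: its log2 signal was 5.90, 6.22 and 6.31 with prednisolone, against 8.09, 12.87 and 11.72 in untreated replicates 1, 2 and 3 (-4.75 ± 0.95, adjusted p = 0.0171). With the combinations Il1b was also low, at 6.14, 6.32 and 8.05 (spironolactone) and 6.28, 6.30 and 6.49 (eplerenone). Fosl2 was at 7.67, 7.50 and 9.28 and at 7.89, 8.26 and 8.24 there. Neither Il1b nor Fosl2 passed with a combination. With prednisolone the AP-1 gene Jun was at 9.73, 9.14 and 9.32, against 8.96, 10.25 and 10.31, and Fosl1 at 5.39, 4.84 and 5.34, against 5.20, 5.67 and 5.83. Neither passed (-0.44 ± 0.31 and -0.37 ± 0.24, adjusted p of 0.452 and 0.412), and both are named after their values were seen. Fos, Fosb and Jund, named likewise, did not pass either. Fos was at 7.83, 7.69 and 7.08 with prednisolone, against 9.91, 8.88 and 11.80 without treatment. Fosb was at 5.95, 6.22 and 5.82, against 7.24, 6.23 and 6.69, and Jund at 8.35, 8.47 and 8.43, against 8.99, 9.28 and 9.04. Members of the list thus differed in which untreated arrays were high, and the part of any of them in the values of Mmp3 was not tested. The cytokines Il6 and Osm fell by 2.18 ± 0.27 and 0.51 ± 0.11 with prednisolone (adjusted p of 0.0032 and 0.024), and Il6 fell by 2.09 ± 0.27 with spironolactone plus lisinopril (adjusted p = 0.028).

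The genes whose pattern was closest to a member were found by the root mean square difference over 12 arrays between log2 values centred on each gene's mean, as a description. Nearest to Mmp3 were Mxd1, Bcl3 and Litaf, at 0.30, 0.34 and 0.34 log2 units, where the SD of Mmp3 itself was 0.82. Nearest to Mmp19 were Plek, Hcar2 and Nlrp3, at 0.27, 0.31 and 0.33 with an SD of 0.93. Nearest to Timp3 were Fgf18, Abi3bp and Emcn, at 0.17, 0.19 and 0.20 with an SD of 0.48. Emcn is 1 of the 9 endothelial markers. Their median deviation was -0.055, -0.38 and -0.44 with prednisolone, -0.12, 0.082 and 0.41 with spironolactone plus lisinopril and -0.12, 0.41 and 0.11 with eplerenone plus lisinopril, against 0.39, -0.57 and 0.42 without treatment. The 3 lowest were prednisolone replicates 2 and 3 and untreated replicate 2, which were also the 3 lowest arrays for Timp3. With prednisolone 1 of the 9 markers, Cdh5, was lower than in untreated muscle (-1.48 ± 0.26, adjusted p = 0.0106). Prednisolone replicate 1, the fourth lowest for Timp3, was above spironolactone replicate 1 and eplerenone replicate 1 in these markers. The part of endothelial cells in the Timp3 values was not tested.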

How the data were processed

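Quadriceps RNA of 12 mice was measured on single-channel Affymetrix arrays, 1 per mouse. The authors deposited log2 signals, made by RMA with Expression Console and Transcriptome Analysis Console as the submitters' processing notes name them. Their versions, and the genome build and annotation of the clusters, are not named in the labels or file headers. Values ran from 1.61 to 19.93, above the log2 ceiling of 16 of a 16-bit scanner, so a rescaling that no source describes may affect folds. Clusters took their symbols from the platform's table, updated through the gene ID for 827 clusters.

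A mean per group was estimated in limma 3.58.1 (R 4.3.3) from the 12 arrays together, with 8 residual and 2.94 prior degrees of freedom, a two-sided moderated test and Benjamini-Hochberg adjustment over 30412 clusters at 0.05. The median SE of a comparison was 0.13, and 3 arrays per group limit the precision. The procedure was tested on simulated data. Groups are said not to overlap where every array of 1 lies beyond every array of the other. The members and gene lists were chosen with earlier results of these data known. All 10 members are named; from each pathway list and comparison, the genes past the threshold are named, at most the 4 with the smallest p, and genes named outside this rule are marked as such. Marker lists follow the same limit where they are set beside a result. Col1a1, Col1a2, Col3a1, Dcn and Lcn2 also stand in marker lists. Neighbours are given for the 3 members with the smallest F-test p. Alternatives were another normalization or centring, a filter on dim clusters, all clusters, another variance model, fewer groups, a replicate block and left-out arrays.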

Additional observations from a re-analysis of the deposited data

How the results depend on the processing

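The log2 differences of the 10 genes in 6 comparisons (60 results) were computed under 20 alternative settings, 12 of which left out 1 array. Of 1170 values 49 changed sign, none of them past the threshold, and 34 of the 60 results kept their sign throughout. The call of Mmp3 with prednisolone ended with 2 groups fitted alone, against untreated array 1 alone (0 members called in each case) and without untreated replicate 2 or 3 or prednisolone replicate 2 or 3. Members called ranged from 0 to 3 over left-out arrays in each comparison against untreated and in the F-test (3 without untreated replicate 1), and stayed at 0 between treatments. With the replicate number as a block, 1 member was called with prednisolone against untreated and 0 with either combination, and Mmp3 with prednisolone was at -1.75 (adjusted p = 0.0401). The labels give no shared litter or batch. The 18 same-number pairs had correlations of -0.24 to 0.16, with 4 of them over 0.1. Whether the number pairs the mice was not tested.

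Timp2 with spironolactone plus lisinopril against untreated turned to 0.039 under quantile normalization and 0.050 with equal array medians, and Mmp2 with spironolactone plus lisinopril against prednisolone to 0.052 with equal medians. Against untreated array 1 alone, the signs turned with spironolactone plus lisinopril for Mmp9 (0.21), Mmp12 (0.36), Timp1 (0.27) and Timp4 (0.63). They turned with eplerenone plus lisinopril for Mmp2 (-0.21), Mmp12 (0.13), Timp1 (0.12), Timp2 (-0.075) and Timp3 (-0.068), and with prednisolone for Mmp19 (0.17) and Timp4 (0.51).

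With 1 array left out, the sign changed in 19 of the 60 results. For spironolactone plus lisinopril against untreated the ranges were -0.52 to 0.21 (Mmp2), -0.77 to 0.031 (Mmp9), -0.84 to 0.16 (Mmp12), -0.13 to 0.081 (Timp2) and -0.59 to 0.11 (Timp4). For eplerenone plus lisinopril against untreated they were -0.24 to 0.28 (Timp3) and -0.29 to 0.41 (Timp4), and for prednisolone against untreated -0.37 to 0.21 (Mmp2) and -0.035 to 1.52 (Mmp9). For spironolactone plus lisinopril against eplerenone plus lisinopril they were -0.094 to 0.38 (Mmp3), -0.067 to 0.74 (Mmp9), -0.13 to 0.84 (Mmp12), -0.094 to 0.44 (Timp1), -0.20 to 0.011 (Timp2) and -0.52 to 0.053 (Timp4). For spironolactone plus lisinopril against prednisolone they were -0.43 to 0.29 (Mmp2), -0.42 to 0.016 (Mmp14), -0.0063 to 0.20 (Timp2) and -0.073 to 0.25 (Timp4). The cause of these changes was not tested. Another cluster per gene could not be tried, since each member had 1.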
